A study of Rattus norvegicus with 6 samples.

Results

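The interferon regulatory factors (IRFs) are a family of transcription factors that share a DNA-binding domain with conserved tryptophans and bind GAAA repeats in the promoters of immune genes. The genes described are Irf1, Irf2, Irf3, Irf4, Irf5, Irf7, Irf8 and Irf9, and their probes were found through the RefSeq transcript accession printed with each probe of the array. These 8 genes, of 15284 named genes on the array, had 11 of its 61657 probes. Irf1, Irf2 and Irf9 had 2 probes each and the other five had 1 each, and probes of 1 gene read the same transcript and are not replicates.

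Renal cortex RNA of male Sprague-Dawley rats, 5 weeks old when purchased, was measured on single-colour Agilent arrays, 1 per animal. In the NDMA group 3 rats received n-nitrosodimethylamine, a nitrosamine whose metabolites methylate DNA, at 4 mg/kg/day for 4 weeks. In the water control group 3 rats received water for the same 4 weeks, and rats of both groups ate a basal diet. NDMA animal 1 shared slide 1 with all 3 controls, whereas NDMA animals 2 and 3 were on slide 2, scanned on a different day. Between 43016 and 46248 probes per array were well above background, with 0 to 4 saturated, and the number of arrays limits the precision. The tissue label was borne out by the proximal tubule genes Lrp2 and Slc34a1, with mean normalised signals of 5.88 and 8.26 in NDMA rats and 6.45 and 8.51 in controls. Signals are given as log2 of the processed intensity minus the log2 75th percentile of the same array, so a value of 0 lies at the 75th percentile. A difference is the mean log2 signal of NDMA rats minus that of controls, with its standard error, and was called where limma's p, adjusted by Benjamini-Hochberg over the 43118 probes tested, was under 0.05.

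By what is known mainly from mouse and human cells, the family divides the work of interferon responses. Interferon gamma induces Irf1, and Irf1 then drives antigen presentation genes, with Irf2 as an antagonist at shared sites. Irf3 and Irf7 are phosphorylated downstream of nucleic acid sensors and induce type I interferons, Irf5 acts downstream of Toll-like receptors in macrophages, and Irf9 is the DNA-binding subunit of the factor complex that type I interferon activates. Irf4 and Irf8 are factors of lymphocytes and myeloid cells that bind DNA with partners such as PU.1 and Batf3.

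Irf1, Irf8 and Irf9 rose in NDMA-treated cortex, Irf9 by 1 of its 2 probes, while Irf2, Irf3, Irf5 and Irf7 did not pass the test and Irf4 was too dim to be tested. Of the 11 probes 9 were tested, covering 7 genes, and each of the 9 was well above background on all 6 arrays. Among them 4 were higher in NDMA rats, 0 were lower and 5 did not pass. Over all 43118 probes tested 2.50% were higher and 0.485% lower, or 2.99% in either direction. The groups did not overlap for 6 of the 9 probes, against 26.9% of all probes tested. The median difference of the 9 probes was 0.61, against -0.04 over all probes tested. Irf1 and Irf9 enter these counts and this median through 2 probes each. With 1 probe per gene, 2 of 7 passed.

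**Figure D1:**
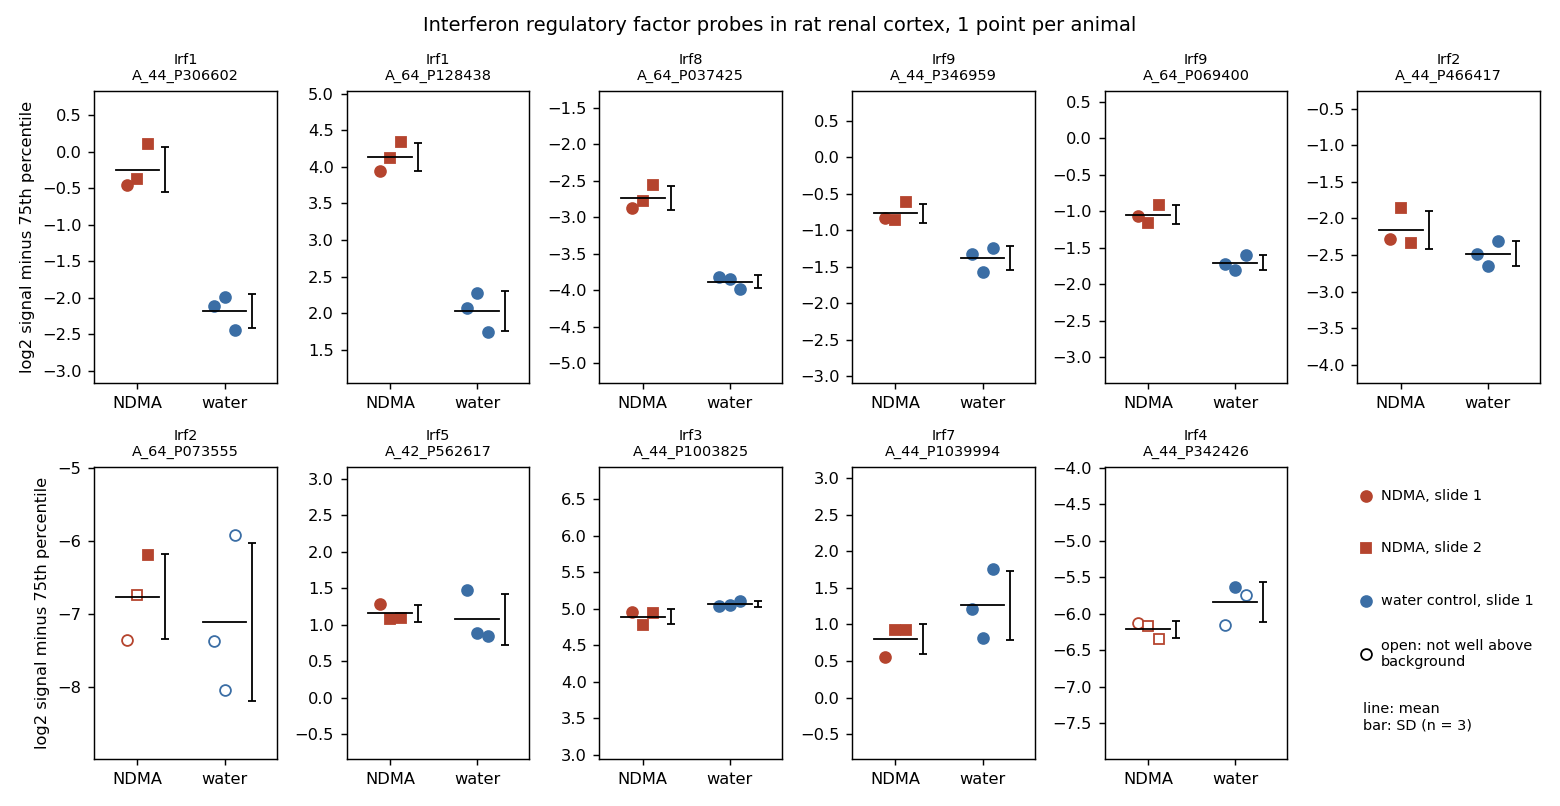
Normalised log2 signal (vertical axis, processed intensity relative to the 75th percentile of the array) of the 11 probes of the family, with NDMA rats on the left and water controls on the right of each panel; every panel spans the same number of log2 units. Points are animals, lines means and bars SDs (n = 3), and open points were not well above background. The groups stand apart for both Irf1 probes, Irf8 and both Irf9 probes, and narrowly for Irf3, and they overlap for Irf2, Irf5, Irf7 and Irf4.

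Irf1 changed most among the members tested. Probe A_64_P128438 had signals of 3.95, 4.12 and 4.34 in the NDMA rats, against 2.07, 2.28 and 1.74 in the controls. Every NDMA animal lay above every control by more than the whole range of either group. The means were 4.14 ± 0.19 in NDMA rats and 2.03 ± 0.27 in controls (SD, n = 3 each), a difference of 2.11 ± 0.17 or 4.31-fold (adjusted p = 0.00620). Probe A_44_P306602 had signals of -0.46, -0.38 and 0.10 in the NDMA rats, against -2.11, -1.99 and -2.44 in the controls. It gave a difference of 1.94 ± 0.19, or 3.82-fold (adjusted p = 0.00766). The 95% intervals of the difference were 1.70 to 2.51 and 1.48 to 2.39, and they are not independent, as both probes were read on the same animals. NDMA animals 1, 2 and 3 lay 1.92, 2.09 and 2.31 above the control mean by A_64_P128438. By A_44_P306602 they lay 1.72, 1.81 and 2.28 above it. Whether the 2 probes differ was not tested.

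Irf8, which in mice is needed for monocytes and for a class of dendritic cells, had a single probe on the array and rose by it. Probe A_64_P037425 had signals of -2.87, -2.78 and -2.56 in the NDMA rats, against -3.82, -3.84 and -3.98 in the controls. The probe was dim, with processed intensities of 144 to 220 in NDMA rats and 64.9 to 73.9 in controls, and the groups did not overlap. The difference was 1.14 ± 0.11, or 2.21-fold (adjusted p = 0.00739). When background was instead corrected by normexp, starting from the spots' median intensities and with an offset of 50 added, the Irf8 difference was 0.63 ± 0.10 (adjusted p = 0.0144).

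Irf9 was higher by a smaller amount at both probes. Probe A_64_P069400 had signals of -1.07, -1.16 and -0.91 in the NDMA rats, against -1.72, -1.80 and -1.60 in the controls. Probe A_44_P346959 had signals of -0.83, -0.86 and -0.62 in the NDMA rats, against -1.33, -1.57 and -1.25 in the controls. Neither probe's groups overlapped, and the range within each group was smaller than the gap between them. The differences were 0.66 ± 0.10 (1.58-fold, adjusted p = 0.0282) and 0.61 ± 0.12 (1.53-fold, adjusted p = 0.0544), so the first passed and the second did not. The call of A_64_P069400 was lost when any 1 of the 6 animals was left out, NDMA or control (adjusted p = 0.0570 to 0.106). With normexp the first differed by 0.41 (adjusted p = 0.0718) and the second by 0.53 (adjusted p = 0.0370), so the 2 settings, which differ in the starting intensities, the background method and the offset, called different probes.

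Irf2, the antagonist of Irf1, had signals of -2.28, -1.86 and -2.33 in the NDMA rats by probe A_44_P466417, against -2.49, -2.65 and -2.31 in the controls. The groups overlapped, and the difference of 0.33 ± 0.16 did not pass (adjusted p = 0.331, 95% interval -0.06 to 0.71). The other Irf2 probe, A_64_P073555, was well above background on 1 NDMA array and on 0 control arrays and was not tested.

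Irf3, which is made constitutively in most tissues and is switched on by phosphorylation, had a bright probe with signals of 4.96, 4.78 and 4.94 in the NDMA rats, against 5.04, 5.05 and 5.11 in the controls. All NDMA animals lay below all controls, by a small margin. The difference was -0.17 ± 0.09 and did not pass (adjusted p = 0.332), and its 95% interval ran from -0.38 to 0.03.

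Irf7, which type I interferon induces and which amplifies the production of interferon alpha, had signals of 0.56, 0.92 and 0.92 in the NDMA rats, against 1.21, 0.81 and 1.76 in the controls. The controls spread over more than the NDMA rats, and the groups overlapped. The difference was -0.46 ± 0.25 (adjusted p = 0.371), with a 95% interval from -1.06 to 0.14, so a rise of the size measured for Irf1 or Irf8 lies outside it.

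Irf5, a factor of macrophage cytokine genes, had signals of 1.29, 1.08 and 1.10 in the NDMA rats, against 1.48, 0.89 and 0.85 in the controls. The highest and the lowest of the 6 values were both controls. The difference was 0.09 ± 0.18 (adjusted p = 0.833, 95% interval -0.36 to 0.53). Irf4, a factor of plasma cells and activated lymphocytes, had processed intensities of 15.0, 18.1 and 16.0 in the NDMA rats, against 14.7, 20.0 and 19.3 in the controls. Its probe was well above background on 0 NDMA arrays and 1 control array, so no change could be measured at this signal.

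**Figure D2:**
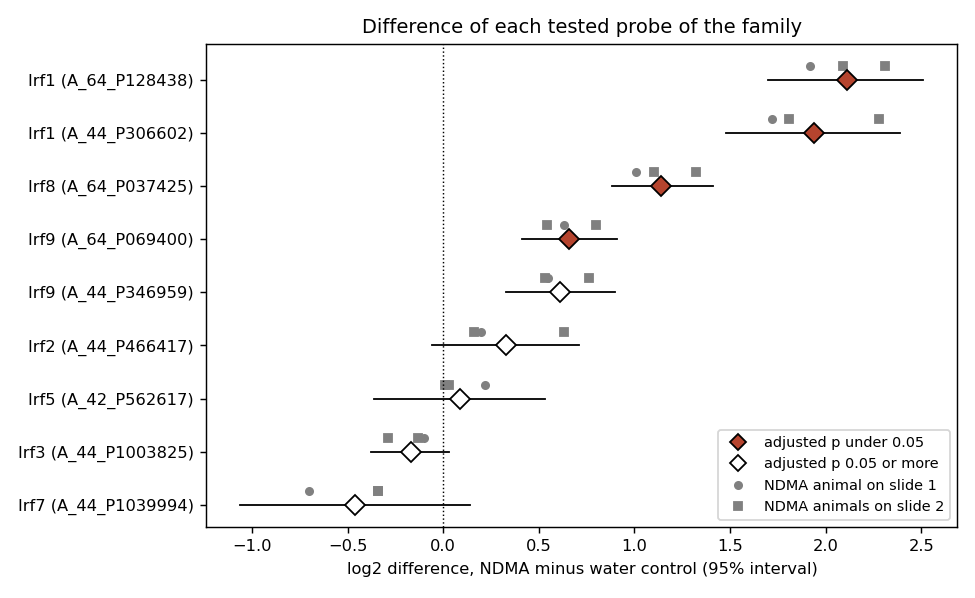
Log2 difference, NDMA minus water control (horizontal axis), of the 9 tested probes of the family, as diamonds with 95% intervals; filled diamonds had an adjusted p under 0.05. Small grey marks are each NDMA animal minus the control mean. Both Irf1 probes, Irf8 and A_64_P069400 of Irf9 are filled, and the intervals of Irf2, Irf5, Irf3 and Irf7 cross 0.

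The slide touches each of these results, since only NDMA animal 1 was hybridised beside the controls. In that animal the 2 Irf1 probes lay 1.92 (A_64_P128438) and 1.72 (A_44_P306602) above the control mean, Irf8 1.01, and the 2 Irf9 probes 0.63 (A_64_P069400) and 0.55 (A_44_P346959). NDMA animals 2 and 3 on slide 2 lay 2.09 and 2.31 above it for Irf1 probe A_64_P128438, 1.81 and 2.28 for A_44_P306602, and 1.10 and 1.32 for Irf8. For Irf9 they lay 0.54 and 0.80 above it by A_64_P069400, and 0.53 and 0.76 by A_44_P346959. In animals 2 and 3 the slide and the treatment cannot be told apart. When slide was added as a block, the estimate rested on animal 1. The differences were then those given above for animal 1, and the 4 calls were lost.

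The promoter sequences of 7 of the 8 genes were in RefSeq's table for rat assembly GRCr8, as windows from 250 bases before to 50 after the transcription start, and Irf2 had no entry. They were searched on both strands for the letters of the gamma-activated site, TTCNNNGAA, through which interferon gamma induces genes, and for the core of the interferon-stimulated response element, GAAA followed after any 2 bases by another GAAA, which IRF complexes bind. The first motif reads alike on both strands, and no match of one overlapped a match of the other in these windows. The gamma-activated letters were in 3 of the 7 windows, those of Irf1, Irf8 and Irf9, and in 8.87% of all 33469 promoter windows. The response element core was in the window of Irf7 and in 3.92% of all windows. The 250 bases before the start are shown for the 3 genes with a called probe and for Irf7, 5′ to 3′, with the matched letters in capitals.
Irf1 promoter, chr10:38417685-38417934, plus strand: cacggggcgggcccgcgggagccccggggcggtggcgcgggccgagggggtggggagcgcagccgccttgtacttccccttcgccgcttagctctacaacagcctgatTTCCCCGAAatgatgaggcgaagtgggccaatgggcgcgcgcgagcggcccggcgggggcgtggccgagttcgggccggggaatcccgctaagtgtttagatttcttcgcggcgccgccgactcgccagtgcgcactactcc
Irf8 promoter, chr19:65699034-65699283, plus strand: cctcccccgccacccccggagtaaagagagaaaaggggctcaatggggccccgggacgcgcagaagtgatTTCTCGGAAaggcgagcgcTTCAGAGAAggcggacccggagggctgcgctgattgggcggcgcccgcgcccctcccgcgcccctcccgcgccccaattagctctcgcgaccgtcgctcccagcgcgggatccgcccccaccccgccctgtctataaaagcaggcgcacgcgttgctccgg
Irf9 promoter, chr15:33065586-33065835, plus strand: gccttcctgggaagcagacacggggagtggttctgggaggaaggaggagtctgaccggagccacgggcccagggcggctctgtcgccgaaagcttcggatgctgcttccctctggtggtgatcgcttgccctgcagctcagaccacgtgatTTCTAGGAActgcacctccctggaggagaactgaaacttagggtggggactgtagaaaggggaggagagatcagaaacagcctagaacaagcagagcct
Irf7 promoter, chr1:205800024-205800273, minus strand: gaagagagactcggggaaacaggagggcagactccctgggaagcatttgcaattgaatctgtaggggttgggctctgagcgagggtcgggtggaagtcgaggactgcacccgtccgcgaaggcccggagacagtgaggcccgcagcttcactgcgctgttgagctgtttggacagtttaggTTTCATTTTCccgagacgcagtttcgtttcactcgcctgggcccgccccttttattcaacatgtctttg
The Irf1 match began 142 bases before the start, the 2 Irf8 matches 180 and 161 bases, and the Irf9 match 99 bases. The Irf7 match, on the opposite strand, began 69 bases before the start. The windows of Irf3, Irf4 and Irf5 held neither set of letters. A match describes the sequence and shows no binding.

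Upstream of the family, the interferon genes were mostly unmeasured. Of 6 listed, Ifng and Ifna4 were tested. Ifng, which encodes interferon gamma, had signals of -5.08, -5.14 and -5.22 in the NDMA rats, against -7.42, -8.22 and -8.09 in the controls, where it was not well above background on any array. It was at least 1.94-fold higher in NDMA rats (adjusted p = 0.00596); this bound takes as each control's value its measured signal or the dimmest detected signal of that array, whichever is larger. Its p rests on control signals below background, and Ifng was not tested where detection was asked for on all 6 arrays. Ifna4 differed by 0.03 ± 0.07 (adjusted p = 0.871). Among 7 measured interferon receptor and JAK-STAT genes, 2 rose and 0 fell, and the other five did not pass (median difference 0.20). Among those that rose was Stat2, a partner of Irf9 (0.53 ± 0.08, 1.45-fold, adjusted p = 0.0300). The list had 0 calls without NDMA animal 3, 1 without NDMA animal 2 or any one control, and 2 without NDMA animal 1, and its median was 0.31 without control 3. Jak2, a kinase of the interferon gamma receptor, differed by 0.29 ± 0.09 (adjusted p = 0.156). Over the 12175 genes with a symbol, each read by its brightest probe, 3.56% were higher and 0.485% lower (4.05% in either direction), and the median difference was -0.04.

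Of 17 measured sensors, adaptors and kinases that activate Irf3, Irf5 and Irf7, 1 rose and 0 fell. This is 5.88% called, against 4.05% in either direction over all genes with a symbol. The median of the list was 0.20, and in limma 5 of the 17 had an unadjusted p under 0.05. The gene that rose was Sting1, the adaptor of the cytosolic DNA sensor cGAS (0.89 ± 0.11, 1.86-fold, adjusted p = 0.0141), and 0 of the list passed without control 1. Tank, a scaffold of the kinases that phosphorylate Irf3, differed by 0.43 ± 0.09 (adjusted p = 0.0709). Tbk1, the kinase itself, had signals of -2.06, -1.79 and -1.81 in the NDMA rats, against -2.07, -2.12 and -1.71 in the controls. Of 7 negative regulators 0 passed in limma and the median was 0.01. An unadjusted p under 0.05 was found for 2 of them, against 7882 of all 43118 probes tested. Socs1, which inhibits JAK kinases, differed by 1.10 ± 0.27 (adjusted p = 0.107).

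Among 7 measured partner factors of Irf4 and Irf8, 0 fell and the median was 0.39. Over all genes with a symbol, 3.56% were higher and 0.485% lower. Of the 7 factors 3 rose. These were Batf3, which acts with Irf8 in dendritic cells (1.42 ± 0.12, 2.68-fold, adjusted p = 0.00680), Batf (1.64 ± 0.18, 3.13-fold, adjusted p = 0.0106) and Spi1, which encodes PU.1 (1.01 ± 0.14, 2.02-fold, adjusted p = 0.0195). The list had 2 calls without any one control, its median was 0.19 without control 3 and 0.60 with the slide as a block, and 0 passed in that block fit. Spib, the close relative of Spi1, differed by 0.39 ± 0.20 (adjusted p = 0.352). Batf3 had signals of -2.12, -1.94 and -1.72 in the NDMA rats, against -3.43, -3.33 and -3.28 in the controls, so its groups stood apart as those of Irf8 did.

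Genes listed as targets of Irf1 and interferon gamma rose in most cases. Of 19 measured, 16 rose and 0 fell, and the median was 1.73, or 1.51 with Cd274 at its bound. Over all genes with a symbol, 3.56% were higher and 0.485% lower. Cxcl9 and Cxcl10, chemokines that draw T cells, differed by 5.91 ± 0.28 (adjusted p = 0.00280) and 3.71 ± 0.15 (adjusted p = 0.00215). The immunoproteasome subunit Psmb9 and the peptide transporter Tap1 differed by 2.43 ± 0.12 and 2.43 ± 0.16 (adjusted p = 0.00280 and 0.00536). Vcam1, an adhesion molecule of endothelium, differed by 0.59 ± 0.16 (adjusted p = 0.136). With the slide as a block, where the estimate rests on NDMA animal 1, fewer of the 19 passed and the median was 1.63. In that fit the medians were 1.09 for the macrophage and dendritic cell markers and 1.16 for the T and NK cell markers described below. No gene of these marker lists or of the other lists passed in it.

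Of 17 measured genes listed as targets of the type I interferon factors Irf9, Irf3 and Irf7, 1 rose and 0 fell. This is 5.88% called, against 4.05% over all genes with a symbol. The median of the list was 0.19. In limma 5 had an unadjusted p under 0.05, against 7882 of all 43118 probes tested. Among the 5, Mx2 was lower (-0.38 ± 0.10, adjusted p = 0.119), with groups that did not overlap, and the others were higher. With a trended and robust variance 1 gene of the list was called higher and 1 lower. Without NDMA animal 1 the median was 0.35 and 8 had an unadjusted p under 0.05, against 8360 of all probes. The difference between this list and the Irf1 list was not tested, and both were chosen with earlier results of these data known. The gene that rose was Cmpk2, a mitochondrial nucleotide kinase (0.59 ± 0.11, 1.51-fold, adjusted p = 0.0485). Its call was lost with quantile normalisation, with the median of each array, with normexp, with no detection filter and with replicate number as a block. No gene of this list passed without NDMA animal 2 or 3 or without any one control. Isg15, a ubiquitin-like modifier, differed by 0.62 ± 0.15 (adjusted p = 0.106). Of 6 cytokine genes listed for Irf5, 0 passed in limma, 3 had an unadjusted p under 0.05, and the median was 0.45; Il1b had the smallest p (1.22 ± 0.45, adjusted p = 0.230).

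**Figure D3:**
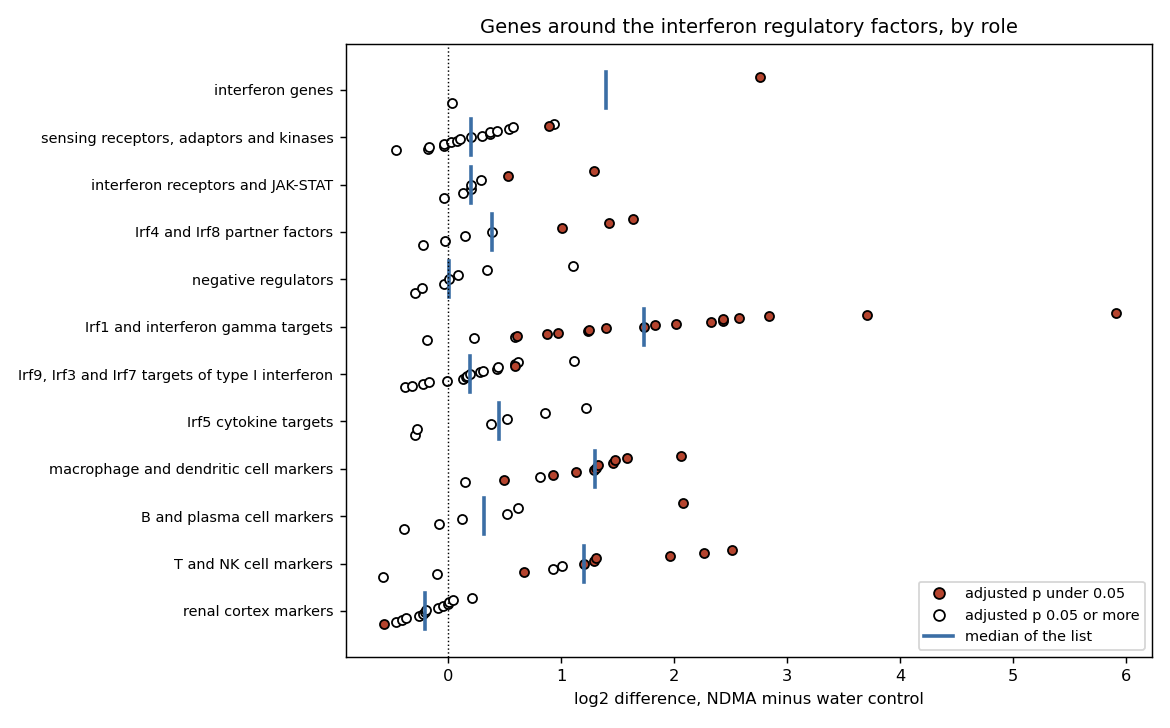
Log2 difference, NDMA minus water control (horizontal axis), of each measured gene in the lists of pathway genes and cell type markers; filled points had an adjusted p under 0.05 and the blue line is the list's median, with Ifng, Cd274, Xcr1 and Blk, not well above background in any control, drawn at their measured difference and not at their bound. The Irf1 and interferon gamma list has 16 filled points of 19 and the type I interferon list 1 of 17. Over all 12175 genes with a symbol, 4.05% were called. The lists were chosen with earlier results of these data known, and the difference between them was not tested.

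Of the members known from lymphocytes and myeloid cells, Irf8 rose, Irf5 did not pass and Irf4 was too dim to be tested. Leukocyte markers were read beside them. In whole cortex, more cells of a type and more RNA per cell cannot be told apart. Over all 12175 genes with a symbol, 3.56% were higher and 0.485% lower. Of 12 measured macrophage and dendritic cell markers 10 rose and 0 fell, with a median of 1.30, or 1.28 with Xcr1 at its bound. They included Clec9a of dendritic cells (2.06 ± 0.19), Cd68 of macrophages (1.48 ± 0.13), C1qb (1.33 ± 0.12) and the pan-leukocyte gene Ptprc (1.29 ± 0.12), each at adjusted p = 0.00736, whereas Itgam differed by 0.81 ± 0.59 (adjusted p = 0.498). The list had 6 calls without NDMA animal 2 or 3 and 5 without control 1. The mean over the list lay 0.97 to 1.31 above the control mean in the NDMA rats, against -0.25 to 0.13 in single controls. Of 11 T and NK cell markers 7 rose and 0 fell, with a median of 1.20, and their mean lay at 1.06 to 1.18 in NDMA rats and -0.19 to 0.24 in controls. Cd247, Zap70, Cd3d and Cd3g, parts of T cell receptor signalling, differed by 1.96 ± 0.13 (adjusted p = 0.00533) and by 1.20 ± 0.11, 1.29 ± 0.12 and 2.26 ± 0.21 (each at adjusted p = 0.00736), and Cd8a by 0.93 ± 0.24 (adjusted p = 0.115). The NK cell genes did not share this direction, as Nkg7 differed by -0.10 ± 0.19 (adjusted p = 0.813) and Klrd1 by -0.58 ± 0.19 (adjusted p = 0.194), with groups that did not overlap for Klrd1. The T and NK list had 4 calls without NDMA animal 2 or 3 or without control 1. Of 6 B and plasma cell markers, the cells known for Irf4, 1 rose and 0 fell, with a median of 0.32, and the mean lay at 0.37 to 0.66 in NDMA rats and -0.09 to 0.07 in controls. The gene that rose was Blk, whose probe was not well above background on any control array and which was at least 1.71-fold higher in NDMA rats (adjusted p = 0.0351), and Sdc1 differed by 0.62 ± 0.13 (adjusted p = 0.0621). The p of Blk rests on control signals below background. The list had 0 calls without NDMA animal 2 or 3, without control 2 or 3, with normexp, with no detection filter, and with detection asked for on all 6 arrays, where Blk was not tested; its median was 0.21 without NDMA animal 3 and 0.18 without control 3. Of 14 renal cortex markers 1 fell, Lrp2, the endocytic receptor megalin (-0.57 ± 0.10, adjusted p = 0.0439), with a median of -0.20 and a mean at -0.21 to -0.14 in NDMA rats and -0.01 to 0.01 in controls; Slc22a6 differed by -0.37 ± 0.10 (adjusted p = 0.116). The call of Lrp2 was lost when any 1 of the 6 animals was left out, and with quantile normalisation 0 renal markers passed and their median was -0.05. The part of these markers in the differences of Irf1, Irf8 and Irf9 was not tested.

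The genes with profiles nearest to each member that rose were found among 12162 genes by the root mean square difference of log2 signals, relative to the control mean, over the 6 arrays. Each member was read by its brightest probe, which for Irf9 was A_44_P346959, the probe that did not pass. For Irf1 these were Cd3g at 0.13, Ifi47, an interferon gamma induced GTPase, at 0.14, and Septin6 at 0.16. For Irf8 they were the MHC class I gene RT1-M3-1 at 0.08 and Tifa and Rhoh at 0.09 each. For Irf9 they were Lgals3bp at 0.08 and Icam1 and Vim at 0.10 each. Lgals3bp differed by 0.65 ± 0.15 and did not pass (adjusted p = 0.0897), while the other eight passed. With 6 arrays in 2 groups, likeness of this kind rests largely on the size of the difference.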

How the data were processed

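The authors used Agilent Feature Extraction to read spot intensities (10.7 in the submitters' processing notes, 10.7.1.1 in the file headers). Headers of the deposited files show that background and a spatial trend were taken off each processed intensity and that arrays were left unscaled. Median and background intensities in those deposited files are pixel values. The authors' deposited value table is a linear ratio that matched the processed intensity over its array's 75th percentile within 0.00174 log2 units, for values above 0.1.

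The log2 75th percentile of each array, over non-control probes, was subtracted from its log2 processed intensities. Outlier spots were set missing, 18 values among the probes tested. A probe was tested if some group had it well above background in all 3 animals. The test was limma's (lmFit, then eBayes, two-sided), version 3.58.1 in R 4.3.3, with 4 residual and 2.40 prior degrees of freedom. Each replicate was 1 animal, as the design text of the series states. An exact permutation test of 3 against 3 cannot go below p = 0.1, so none is given. Probes were named by accession through RefSeq's table of assembly GRCr8, where 15360 of 16372 NM accessions matched; array annotation is of build rn4, so no probe coordinates are given. A list gene was read by its brightest probe. The fit was tested on simulated arrays of 43118 probes and called 9 of 67 probes changed 1.5-fold, 39 of 67 changed 2-fold, 57 of 66 changed 4-fold and 9 of 42918 unchanged. The simulated probes varied independently and carried no slide effect, so these rates do not cover the slide layout of the real arrays. Alternatives covered normalisation, background, detection filter, variance model, probe choice, slide, replicate number and single animals.

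The members and gene lists were chosen with earlier results of these data known. Named were all members, Ifng, up to 4 called genes and the uncalled gene with the smallest p of each list, and the 3 nearest genes of each called member. Slc34a1, Tbk1, Mx2, Nkg7 and Klrd1 were added after their values were seen. Some genes that this rule covers are not reported here.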

Additional observations from a re-analysis of the deposited data

How the results depend on the processing

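Of the 9 tested probes of the family, 4 passed in the reported fit, and 4 also passed with quantile normalisation, with the median of each array, with normexp, with the filter asking for detection in all 6 animals and with the authors' value table. The count was 5 with a trended and robust variance, 3 with no detection filter, 2 with 1 probe per gene, 0 with the slide as a block, 0 on slide 1 alone and 1 with the replicate block; it was 3 in each of the 6 fits without 1 animal, where both Irf1 probes and Irf8 passed. On slide 1 alone, with a single NDMA animal, the probes called in the reported fit differed by 1.92 and 1.72 for Irf1, 1.01 for Irf8 and 0.63 for A_64_P069400. Fewer probes per gene explain the count of 2 by construction, since the brightest Irf9 probe is the one that did not pass; the cause of the other changes was not tested.

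Over all probes, 1289 passed, 83.8% of them higher in NDMA rats. The count was 488 with no detection filter, 82 with the slide as a block and 511 with the replicate block, and 0 on slide 1 alone, where 4667 had an unadjusted p under 0.05 in limma. It ran from 464 (without control 1) to 987 (without NDMA animal 1), and was 593 and 500 without NDMA animals 2 and 3 and 692 and 707 without controls 2 and 3. With normexp 65.0% of 1449 calls were higher. Same-numbered animals of the 2 groups did not deviate together. Their correlations across probes ran from -0.0505 to 0.0256, and in 0 of 3 pairs did each animal correlate best with its own number. These values show no pairing by replicate number, but with only 3 pairs they cannot exclude one. In the fits without 1 animal the Irf1 and interferon gamma list had 12 to 15 calls, and the macrophage and dendritic cell list 5 to 9. With normexp the medians were 0.06 for the sensor list and for B and plasma cell markers, 0.13 for partner factors, 0.12 for the type I interferon list, 0.27 for the Irf5 cytokines and 0.73 for T and NK cell markers. With the slide as a block they were 0.10 for the type I interferon list, 0.19 for B and plasma cell markers and -0.13 for renal markers. With detection asked for on all 6 arrays they were 0.10 for the sensor list and 0.12 for B and plasma cell markers. With no detection filter 6 macrophage and dendritic cell and 4 T and NK cell markers passed.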
